A study of Mus musculus with 6 samples.

Results

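Whey acidic protein (Wap) and 9 other genes of the WAP four-disulfide core family were examined in mammary epithelial cells (MECs). They are Slpi, Wfdc1, Wfdc2, Wfdc3, Wfdc12, Wfdc15b, Wfdc17, Wfdc18 and Wfdc21. The 10 genes were chosen by symbol, and all 10 were found among the 55487 genes of the count table. MECs came from BALB/c females at 10 weeks of age, 3 wild-type mice and 3 IL-21isoTg mice, with 1 RNA-seq library per mouse. The transgene is an isoform of IL-21 that stays on the cell membrane. The study describes its expression as specific to T cells, and the promoter that drives it was not given in the sources used here. Apart from the transgene, both groups shared strain, sex and age. Per the study's methods the mice were virgin and their estrous stages were left random. Whole mammary tissue was digested, and the MECs are what was left once magnetic beads had taken out leukocytes (by CD45), endothelial cells (by CD31) and fibroblasts (by CD140a).

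WAP-domain proteins are small secreted proteins held together by disulfide bonds between cysteines. Wap is a whey protein of mouse milk, made by alveolar cells under prolactin and STAT5 in pregnancy and lactation. Its relatives are mostly protease inhibitors and antimicrobial proteins of mucosal and glandular secretions. Slpi, the secretory leukocyte protease inhibitor, blocks neutrophil elastase and cathepsin G.

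Coding sequences are shown for Wap, which had the largest difference, Slpi, which had the smallest p, and Wfdc12 and Wfdc18, which had the highest levels, from the GENCODE M21 transcripts of GRCm38, with the in-frame cysteine codons in capitals. A WAP core has 2 cysteines side by side, seen as a run of 2 capital codons. The Wap coding sequence of 405 bases held 15 cysteine codons and 2 such runs, and that of Slpi 17 and 2. Wfdc12 and Wfdc18 held 8 cysteine codons and 1 run each. Wfdc12 and Wfdc18 are printed whole, Wap from base 109 and Slpi from base 100 of the coding sequence to its end, which leaves 14 and 16 of their cysteine codons in view.
Wap: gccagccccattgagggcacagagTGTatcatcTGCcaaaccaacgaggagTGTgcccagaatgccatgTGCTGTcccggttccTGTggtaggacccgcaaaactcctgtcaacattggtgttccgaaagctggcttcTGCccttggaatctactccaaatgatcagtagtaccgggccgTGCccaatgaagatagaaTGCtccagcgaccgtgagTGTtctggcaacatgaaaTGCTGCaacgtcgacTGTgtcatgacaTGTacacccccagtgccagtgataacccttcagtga
Slpi: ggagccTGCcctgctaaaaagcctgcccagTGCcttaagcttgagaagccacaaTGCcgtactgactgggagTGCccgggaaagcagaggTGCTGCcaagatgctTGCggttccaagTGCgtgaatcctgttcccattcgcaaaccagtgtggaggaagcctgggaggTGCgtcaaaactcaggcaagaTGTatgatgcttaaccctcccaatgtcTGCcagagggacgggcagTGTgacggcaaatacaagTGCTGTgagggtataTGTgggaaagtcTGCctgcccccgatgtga
Wfdc12: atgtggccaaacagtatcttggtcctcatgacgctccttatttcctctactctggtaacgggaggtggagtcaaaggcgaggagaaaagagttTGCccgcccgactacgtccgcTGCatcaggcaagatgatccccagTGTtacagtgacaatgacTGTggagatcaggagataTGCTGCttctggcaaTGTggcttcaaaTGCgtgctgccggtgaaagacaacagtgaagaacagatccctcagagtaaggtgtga
Wfdc18: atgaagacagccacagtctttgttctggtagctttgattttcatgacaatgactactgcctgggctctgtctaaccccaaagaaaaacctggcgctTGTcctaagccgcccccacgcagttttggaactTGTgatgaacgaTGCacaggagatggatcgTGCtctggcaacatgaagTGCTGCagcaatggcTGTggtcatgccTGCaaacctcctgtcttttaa

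Among the others, Wfdc2 had 18 cysteine codons and Wfdc3 had 16, each with 2 runs. Wfdc1 and Wfdc17 had 13 and 9 with 1 run, and Wfdc15b had 10 with 2 runs. The first run of Wfdc15b lies near the start of its coding sequence, apart from its other cysteine codons, so runs do not count cores. The Wfdc21 coding sequence had 6 cysteine codons and no run. On chromosome 2 of GRCm38, 5 of the 10 genes (Wfdc12, Wfdc15b, Slpi, Wfdc2 and Wfdc3) lie between 164189231 and 164745931, a stretch that also holds 10 other WAP-domain genes. Wfdc17, Wfdc18 and Wfdc21 lie side by side on chromosome 11 between 83703991 and 83752642, Wap lies on the same chromosome from 6635482 to 6638637, and Wfdc1 lies on chromosome 8 from 119666365 to 119688222. The closest pair was Wfdc17 and Wfdc18, whose coding sequences were identical at 79.7% of the alignment. The longest run of bases shared by the transcripts of any 2 of the 10 genes was 30 bp, in that pair.

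The libraries held between 15902886 and 25719244 counts on genes. Levels are given as CPM, that is, counts scaled to library size with TMM factors. A floor of 3 counts corresponds to 0.112 to 0.280 CPM, which covers counting error only. Epithelial markers were present in every mouse, with 8867 to 28306 counts of Epcam, and the summed level of 8 epithelial markers overlapped between the genotypes (5600.5 to 7609 CPM in wild-type and 5452 to 7926 CPM in IL-21isoTg mice). The gene of the transgene, Il21, was counted 795, 216 and 131 times in IL-21isoTg mice. Of the wild-type libraries, the first and second held 0 counts of it and the third held 37. A list of 15 salivary gland genes made up 21.7%, 6.34% and 14.8% of each wild-type library and 21.1%, 4.71% and 38.4% of each IL-21isoTg library, so genes known from another gland were measured in every mouse.

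To compare the genes with each other, levels per transcript length (TPM) were used. In wild-type MECs Wfdc12 had the highest mean level, 3352 TPM, followed by Wfdc18 (875 TPM), Wfdc2 (306 TPM), Slpi (81.8 TPM) and Wap (25.5 TPM). Wfdc1, Wfdc3, Wfdc15b, Wfdc17 and Wfdc21 had means of 4.95, 2.94, 1.54, 1.04 and 0.416 TPM. In IL-21isoTg MECs Wfdc12 (4820 TPM) and Wfdc18 (1400 TPM) again led, and Wap was next with 1315 TPM, ahead of Wfdc2 (241 TPM) and Slpi (147 TPM). The other genes had 0.487 to 9.93 TPM there. In wild-type MECs each gene overlapped its neighbour in this order when single mice were compared. In IL-21isoTg MECs Slpi, with at least 84.8 TPM, lay above Wfdc3, with at most 19.0 TPM, and every other pair of neighbours overlapped. The second mouse of each group had the smallest share of counts on the salivary gland list as a whole. Within the list, Dcpp1, Dcpp2 and Dcpp3 were instead highest in the second of the wild-type mice (Dcpp1 at 11804 CPM against 3193 and 3627 CPM). In the second mice Wfdc18 lay above Wfdc12, at 1528 against 1514 TPM in wild-type and 2134 against 989 TPM in IL-21isoTg. The counts of Wfdc12 are also uncertain because of an antisense gene, described below. The 10 genes took 0.152% to 0.194% of all counts in wild-type and 0.211% to 0.378% in IL-21isoTg mice, and between 13.6% and 82.7% of these counts fell on Wfdc12 alone.

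**Figure D1:**
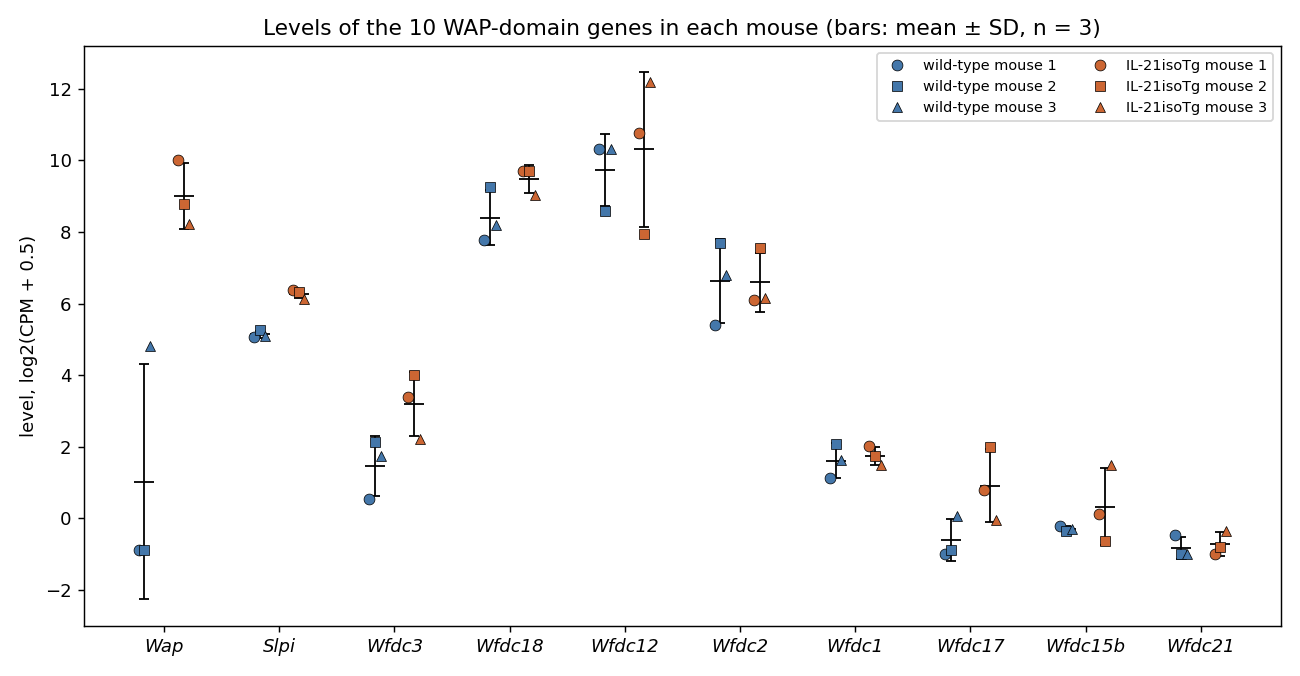
Level of each of the 10 WAP-domain genes in each mouse on the log2(CPM + 0.5) scale, blue for wild-type and orange for IL-21isoTg mice, with a marker shape for each mouse number and black bars for the mean and SD of 3 mice on that scale. The orange points lie above all blue points for Wap, Slpi and Wfdc3, and the points of the 7 other genes overlap.

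The comparison asked how the genes differed between MECs of IL-21isoTg and wild-type mice before tumors appear. Under the quasi-likelihood test of edgeR, adjusted by Benjamini-Hochberg over 17165 genes, none of the 10 genes passed an adjusted p of 0.05, as 0% of all genes did. At an unadjusted p under 0.05, 5 of the 10 genes were higher in IL-21isoTg MECs (Wap, Slpi, Wfdc3, Wfdc17 and Wfdc18) and 0 were lower, where 5.82% of all genes passed, 3.19% higher and 2.63% lower. This count of 5 rested on single mice: it was 2 without the first wild-type mouse (Slpi and Wfdc3), and 3 without the first or the second IL-21isoTg mouse. Without the second IL-21isoTg mouse, Slpi was the 1 gene of the 5 that still passed, beside Wfdc12 and Wfdc15b. In 3 of the 10 genes (Wap, Slpi and Wfdc3) every IL-21isoTg mouse lay above every wild-type mouse, which was so for 5.54% of all genes tested, and 0 of the 10 had the reverse order, found in 6.54%. Scaled by library totals without TMM factors, a setting chosen after the data were seen, which moved the median of all genes to -0.27, Wfdc3 overlapped, Slpi was apart by little (at most 46.2 CPM in wild-type and at least 46.8 CPM in IL-21isoTg mice) and 3 genes had an unadjusted p under 0.05 (Slpi, Wfdc3 and Wfdc17). Both Wfdc15b and Wfdc21 were too low for the test, and Wap and Wfdc17 had a level over the filter in only 1 wild-type mouse each, so that they were tested because of the mice in which they were high. Among the 8 genes tested, Wap and Wfdc17 included, the median log2 fold change was 1.16, beside -0.02 over all genes. The genes had been chosen with earlier results of these data known, so this median is a description only. RNA of a whole cell preparation was measured, so a change in the number of cells of a type and a change of RNA per cell cannot be told apart.

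**Figure D2:**
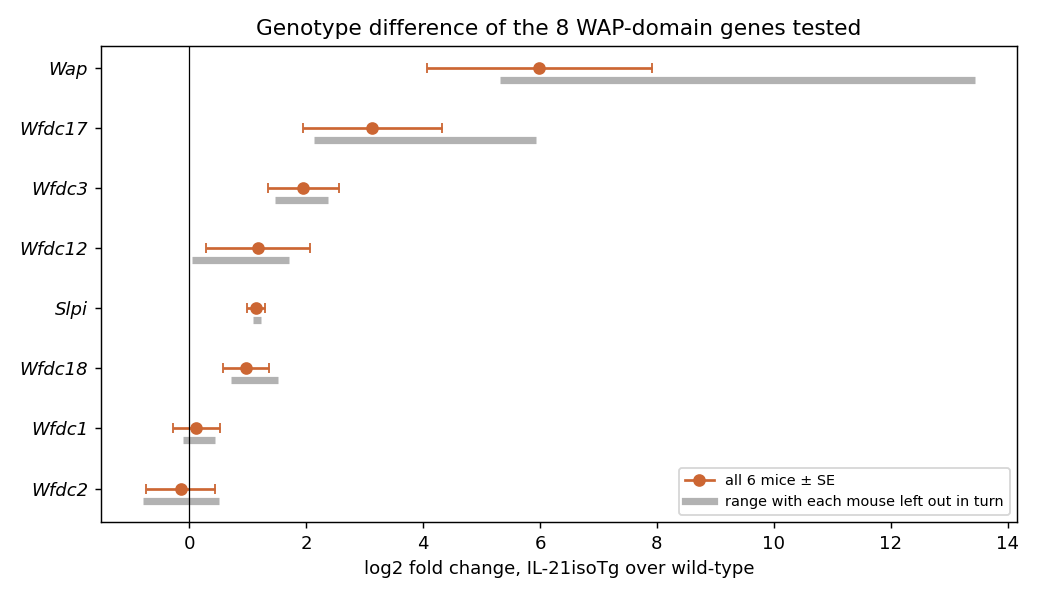
Log2 fold change (IL-21isoTg over wild-type) of the 8 WAP-domain genes tested, as orange points with the standard error, and the range of the value when each mouse is left out in turn as grey bars. Slpi has the shortest bars, from 1.09 to 1.22, and Wap the longest grey bar, from 5.32 to 13.4, where the upper end is a fitted value against 1 count in each of 2 mice and no measured size.

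Wap (ENSMUSG00000000381, minus strand, 3 annotated transcripts) was counted 24614, 11775 and 3177 times in IL-21isoTg mice and 1, 1 and 611 times in wild-type mice. In CPM, wild-type MECs had 0.0451, 0.0480 and 27.5, or 9.19 ± 15.8 (SD, n = 3), and IL-21isoTg MECs had 1023, 438 and 296, or 586 ± 385 (SD, n = 3). The groups did not overlap, but the third wild-type mouse carried 99.7% of all wild-type Wap counts. For Wap the log2 fold change was 5.99 (standard error 1.93, edgeR adjusted p = 0.809), and the exact permutation test gave p = 0.1, the smallest it can give with 3 mice against 3. Without the third wild-type mouse, the one with Il21 counts, the edgeR adjusted p was 0.0252, and with any other mouse left out it was 0.566 to 0.993. The first and second wild-type mice had 1 count each, under the floor of 3 counts, so the size of the difference from them is not given.

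Wap was set beside 7 other genes of milk proteins in the same mice. All 7 were higher in each IL-21isoTg mouse than in any wild-type mouse, as were 5.54% of all genes tested. Their median log2 fold change was 4.08. At an unadjusted p under 0.05, 7 of 7 were higher, beside 3.19% of all genes, and 0 passed after adjustment. The study had already reported casein and lactalbumin genes as upregulated in these MECs. This list was chosen with earlier results of these data known, so its counts and median are a description only. The genes whose pattern over the 6 mice came closest to that of Wap were Csn1s2a, Csn2, Fabp3, Lao1 and Csn1s1, by the root mean square difference of their centred log2 levels (0.42, 0.67, 1.48, 1.56 and 2.06). Csn1s2a and Csn2 encode caseins, and Fabp3 encodes a fatty acid binding protein. Relative to Csn2, Wap had 0.312%, 0.478% and 5.28% as many counts in wild-type mice and 14.3%, 8.25% and 10.6% as many in IL-21isoTg mice. Relative to Csn3, which all mice expressed, the share was 0.0131%, 0.0112% and 6.94% in wild-type and 70.2%, 19.2% and 29.5% in IL-21isoTg mice. Wap thus differed more between the mice than either casein gene, and the third wild-type mouse lay between the other wild-type mice and the IL-21isoTg mice in both shares.

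**Figure D3:**
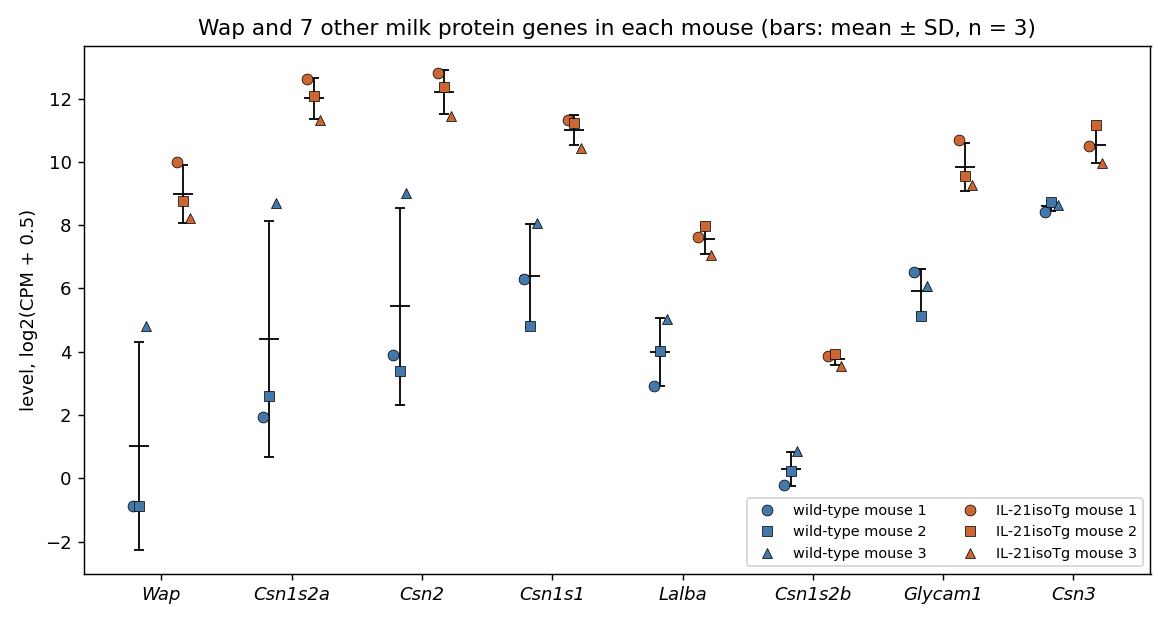
Level of Wap and 7 other milk protein genes in each mouse on the log2(CPM + 0.5) scale, with blue for wild-type mice, orange for IL-21isoTg mice and black bars for the mean and SD of 3 mice on that scale. In Wap, Csn1s2a and Csn2 the triangle of the third wild-type mouse stands far above the other wild-type mice and below all IL-21isoTg mice.

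Of 10 genes listed as regulators of Wap transcription, 10 were tested, and 0 passed an adjusted p of 0.05. In IL-21isoTg MECs 5 had higher and 5 had lower values, Esr1 and Pgr among the latter (log2 fold changes -0.47 and -0.28). The median of the 10 log2 fold changes was 0.05, and it depends on which genes were listed. Elf5, a transcription factor of alveolar cells, had 95.8, 128 and 131 CPM in wild-type and 231, 201 and 142 CPM in IL-21isoTg mice, so its groups did not overlap. Its log2 fold change was 0.70 (standard error 0.22, edgeR adjusted p = 0.809). Stat5a and Prlr, the prolactin receptor, had log2 fold changes of 0.21 (standard error 0.30) and -0.52 (standard error 0.51), with edgeR adjusted p-values of 0.918 and 0.868.

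Slpi (ENSMUSG00000017002, minus strand) had the smallest standard error of the 8 genes tested. Its level was 32.7, 37.8 and 33.9 CPM in wild-type mice and 82.7, 78.8 and 69.4 CPM in IL-21isoTg mice, or 34.8 ± 2.63 (SD, n = 3) and 76.9 ± 6.83 (SD, n = 3). Every IL-21isoTg mouse was above every wild-type mouse (exact permutation test, p = 0.1). In TPM, which carries no TMM factor, the groups overlapped, with 66.6, 98.6 and 80.4 in wild-type and 149.9, 207 and 84.8 in IL-21isoTg mice. The log2 fold change was 1.15 (standard error 0.15), a 2.21-fold difference, with the fifth smallest p of 17165 genes and an edgeR adjusted p of 0.168. By DESeq2's Wald test, which called 0.492% of genes (0.437% of all genes as higher), the adjusted p of Slpi was 1.29e-07 (log2 fold change 1.16), and edgeR's likelihood ratio test gave an adjusted p of 8.60e-05, with 0.379% of genes called and 0.303% called higher. Slpi was the 1 member that these tests called.

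The patterns nearest to that of Slpi were those of Adig, Lbp, Thy1, Thbs2 and Gda, with root mean square differences of 0.12 to 0.17. Lbp encodes the protein that binds bacterial lipopolysaccharide, and Gda encodes guanine deaminase. All 7 fibroblast markers were tested, and 0 passed after adjustment. Their values were higher in IL-21isoTg MECs in 6 of 7 and lower in Dcn (log2 fold change -0.27). Of these 7 markers, 4 had groups that did not overlap, all higher, as in 5.54% of all genes. Their summed level was 1952 to 3449 CPM in wild-type and 4315 to 4975 CPM in IL-21isoTg mice, while as a share of all counts it overlapped (0.194% to 0.422% against 0.293% to 0.503%). None of these markers was at 0, and their part in the Slpi difference was not tested. Neutrophil markers apart from Ltf, which encodes the milk protein lactoferrin, summed to between 0.0480 and 1.94 CPM in wild-type and 0.521 to 1.31 CPM in IL-21isoTg mice. Of the single neutrophil markers, Retnlg had 0 counts in every mouse and Ly6g had 0 to 2. S100a8 had 29, 1 and 22 counts in wild-type and 6, 10 and 10 counts in IL-21isoTg mice. Its log2 fold change was -0.69 (standard error 0.99, edgeR adjusted p = 0.916).

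A list of 9 serine proteases of neutrophils, mast cells and epithelium was set beside the inhibitors. Of these 9, 3 were tested (Prtn3, Prss8 and St14), 0 passed an adjusted p of 0.05, and their median log2 fold change was 0.18. The 6 others had at most 6 counts in any mouse. Elane, neutrophil elastase, had 5, 6 and 0 counts in IL-21isoTg mice and 0 in each wild-type mouse, and Ctsg, cathepsin G, had at most 1 count. Prtn3, proteinase 3, had 19, 59 and 76 counts in wild-type and 85, 185 and 8 counts in IL-21isoTg mice, and its log2 fold change came to 0.68 (standard error 0.76, edgeR adjusted p = 0.884). The epithelial membrane proteases were well measured, St14 at 289 to 455 CPM and Prss8 at 39.0 to 74.7 CPM, with log2 fold changes of 0.16 and 0.18. Of 12 other secreted protease inhibitors, 10 were tested, with a median log2 fold change of 0.36, and 0 passed after adjustment. In IL-21isoTg MECs 9 had higher values, 3 of them at an unadjusted p under 0.05, beside 3.19% of all genes. Those 3 were Cst6, Serpinb1a and Serpina1b.

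Wfdc18 (ENSMUSG00000000983, plus strand), an extracellular proteinase inhibitor made in the mammary gland, had 216, 605 and 293 CPM in wild-type mice and 824, 839 and 525 CPM in IL-21isoTg mice. The groups overlapped, because the second wild-type mouse lay above the third IL-21isoTg mouse. Its log2 fold change came to 0.97 (standard error 0.39, edgeR adjusted p = 0.809; exact permutation test, p = 0.2), and leaving out single mice gave values between 0.71 and 1.52. Its pattern was nearest to those of Adcy4, Ramp2, Olfml1, Spock2 and Adgrf5 (root mean square difference 0.17 to 0.21). Ramp2 and Adgrf5 are known from endothelium. All 5 endothelial markers tested had higher values in IL-21isoTg MECs, 2 of them at an unadjusted p under 0.05 (3.19% of all genes). They summed to 55.7, 149 and 66.1 CPM in wild-type and 248, 188 and 95.2 CPM in IL-21isoTg mice, so the second wild-type mouse again lay above the third IL-21isoTg mouse. None was at 0, Pecam1, the gene of CD31, having 377 to 2073 counts. Their part in the Wfdc18 values was not tested.

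Wfdc12 (ENSMUSG00000042845, minus strand), an antibacterial protein and putative proteinase inhibitor, had 1264, 381 and 1283 CPM in wild-type mice and 1751, 247 and 4640.5 CPM in IL-21isoTg mice. The groups overlapped widely, since the second IL-21isoTg mouse was the lowest of all and the third the highest. For Wfdc12 the log2 fold change came to 1.18 (standard error 0.89, edgeR adjusted p = 0.832). Among the 5 genes nearest to Wfdc12 in pattern, looked up after its values were seen, were Amy1, which encodes salivary amylase, at a root mean square difference of 0.23, and the secretoglobins Scgb2b27 and Scgb1b27 at 0.23 and 0.25. Of the 15 salivary gland genes 13 were tested, and 1 had an unadjusted p under 0.05 (3.19% of all genes were higher at that level). All 13 had higher values in IL-21isoTg mice, with a median log2 fold change of 1.02. Their summed level was 217736, 51857 and 133791 CPM in wild-type and 225710, 40409 and 569061 CPM in IL-21isoTg mice, with the lowest and highest mouse the same as for Wfdc12. With the mean level of these genes as a covariate, the log2 fold change of Wfdc12 was -0.68 (standard error 0.25, edgeR adjusted p = 0.897). Without the third IL-21isoTg mouse, and with no covariate, it was 0.06. The part of the salivary gland genes in the Wfdc12 values was not tested.

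**Figure D4:**
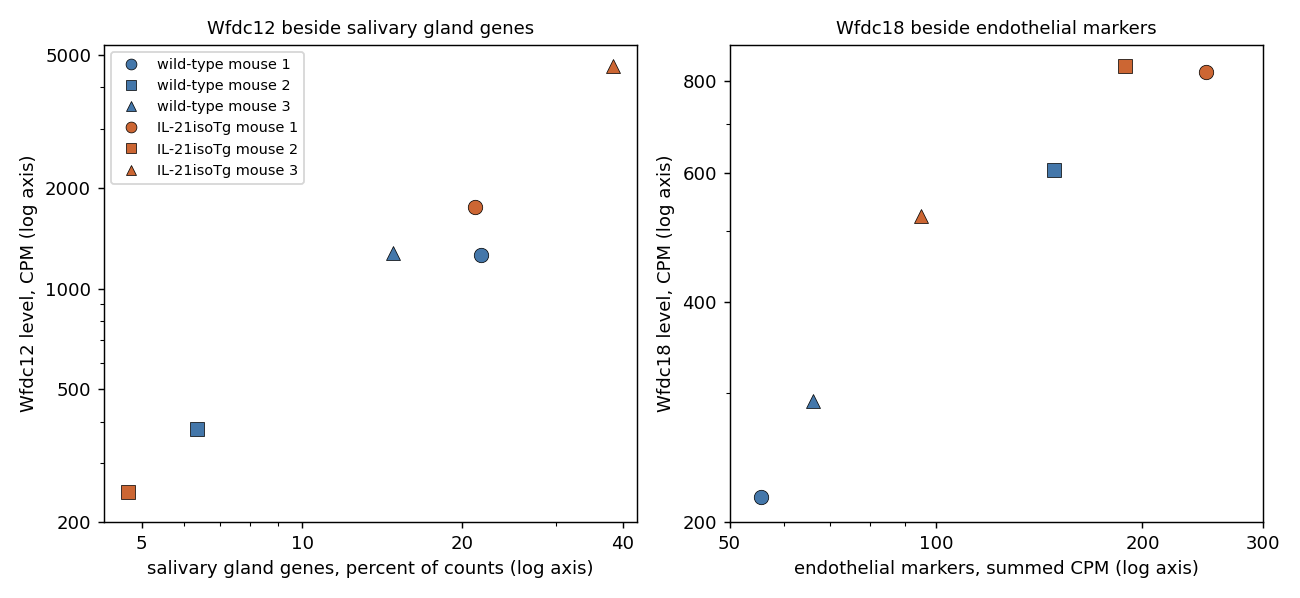
Each point is 1 mouse (blue for wild-type, orange for IL-21isoTg, a marker shape for each mouse number), on log axes. The left panel plots Wfdc12 in CPM against the percent of counts on 15 salivary gland genes, from 4.71% to 38.4%, and the right panel Wfdc18 in CPM against the summed CPM of 5 endothelial markers, with the lowest mouse at the lower left in both panels.

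The gene nearest to Wfdc12 was A730032A03Rik, an antisense transcript on the opposite strand, at a root mean square difference of 0.012. It spans the whole of Wfdc12, from 164177584 to 164196564 on chromosome 2, and 125 of the 775 exonic bases of Wfdc12 are also exonic in it. Its count was between 83.7% and 85.9% of the Wfdc12 count in every mouse, from 5697 to 42531 counts. The libraries were made with a kit that keeps the strand, but the strand setting of the counting was not given in the sources used here, and both genes are reported as uncertain. The overlaps of the other members were small. Slpi shares 1 exonic base with the microRNA gene Mir7678, and the antisense gene Gm32352 overlaps the span of Wfdc1 without sharing exonic bases.

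Wfdc2, which encodes the epididymal protein HE4, had 41.4, 207 and 111 CPM in wild-type mice and 67.5, 187 and 70.3 CPM in IL-21isoTg mice. The second mouse of each group was the highest, and both groups covered nearly the same range. Between genotypes the log2 fold change was -0.14 (standard error 0.59, edgeR adjusted p = 0.972). The nearest patterns were those of Vtcn1, Cutal, Slc52a3, Gm17189 and Cxcl15 (root mean square difference 0.15 to 0.23). The second mouse of each group also had the smallest share of counts on the salivary gland list, though its Dcpp genes were highest in the second wild-type mouse. With the mean level of the list as a covariate, the log2 fold change of Wfdc2 was 0.43 (standard error 0.47). The part of the salivary gland genes in the Wfdc2 values was not tested.

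Wfdc3 had 21, 81 and 64 counts in wild-type mice and 238, 417 and 45 counts in IL-21isoTg mice. In CPM these were 0.947, 3.89 and 2.88 against 9.89, 15.5 and 4.20. The groups were apart by little on this scale, with the third IL-21isoTg mouse just above the second wild-type mouse. In TPM the groups overlapped, with 2.39 in the third IL-21isoTg mouse and 4.74 in the second wild-type mouse. The log2 fold change was 1.95 (standard error 0.60, edgeR adjusted p = 0.809; exact permutation test, p = 0.1). In DESeq2's Wald test its adjusted p was 0.115. Looked up after these values were seen, the nearest patterns were those of E030013I19Rik, Trf, Col9a1, Itga8 and Ceacam10 (root mean square difference 0.13 to 0.38). Trf encodes transferrin, which carries iron in blood and milk. Its level was 659, 2408 and 2007 CPM in wild-type and 6746, 7277 and 2675 CPM in IL-21isoTg mice, with a log2 fold change of 1.72 (edgeR adjusted p = 0.809).

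Wfdc17, known from activated macrophages, had 0, 1 and 12 counts in wild-type mice and 30, 94 and 5 counts in IL-21isoTg mice. The third wild-type mouse lay above the third IL-21isoTg mouse, at 0.540 against 0.466 CPM. The log2 fold change was 3.14 (standard error 1.19, edgeR adjusted p = 0.809; exact permutation test, p = 0.2), and it lay between 2.13, without the second IL-21isoTg mouse, and 5.92, without the third wild-type mouse. Leukocyte and macrophage markers apart from Cd14, which epithelial progenitors also express, summed to 18.8 to 34.5 CPM in wild-type and 24.2 to 33.8 CPM in IL-21isoTg mice, with 26.2 CPM in the second IL-21isoTg mouse, where Wfdc17 was highest. With Cd14 the list held 11 markers, of which 9 were tested, 5 with higher and 4 with lower values, and 0 passed after adjustment. Groups did not overlap in 2 of the 9, C1qa and C1qc, both higher, as in 5.54% of all genes. C1qb of the same complex overlapped (log2 fold change -0.28), as did Csf1r, Cd68 and Lyz2 (-0.11, -0.05 and -0.23). Itgam had 0 to 3 counts and Adgre1 0 to 26. Their part in the Wfdc17 values was not tested.

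Wfdc1 had 1.67, 3.75 and 2.61 CPM in wild-type and 3.53, 2.83 and 2.33 CPM in IL-21isoTg mice, at a log2 fold change of 0.12 with its standard error of 0.40 (edgeR adjusted p = 0.964). Wfdc15b, an antibacterial protein, had 8, 6 and 7 counts in wild-type and 14, 4 and 25 counts in IL-21isoTg mice. Its highest count was in the third IL-21isoTg mouse, whose share of salivary gland counts was also the highest. Wfdc21 had 5, 0 and 0 counts in wild-type and 0, 2 and 3 in IL-21isoTg mice, so a difference was not detectable at this depth. Of 13 other WAP-domain genes, 9 had no count in any mouse. Only Wfikkn1 and Wfikkn2 of these were tested, with log2 fold changes of 0.69 (standard error 0.68) and 0.49 (standard error 0.58) and edgeR adjusted p-values of 0.868 and 0.890.

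The bases before the RefSeq start were available for 8 of the 10 genes, Wfdc1 and Wfdc21 being the others. In the 250 bases upstream of the start, 4 motifs of factors that act in mammary cells were searched on both strands, namely TTCNNNGAA for STAT5, GGAAGT for ETS factors such as Elf5, TTGGCA for NFI and TGTTCT for the glucocorticoid receptor. GGAAGT was found upstream of 3 of the 8 genes, Wap, Slpi and Wfdc18, and in 19.7% of 32851 promoters in all. Wfdc3, Wfdc12, Wfdc15b and Wfdc17, which also had higher means in IL-21isoTg MECs, had no such match. The sequences of the 3 genes are shown because they hold the match, printed in capitals and written as ACTTCC where it lies on the opposite strand. The Wap sequence is chr11:6638650-6638899 (minus strand), that of Slpi is chr2:164356508-164356757 (minus strand) and that of Wfdc18 is chr11:83708754-83709003 (plus strand), all GRCm38.p6, read 5′ to 3′ along the gene.
Wap: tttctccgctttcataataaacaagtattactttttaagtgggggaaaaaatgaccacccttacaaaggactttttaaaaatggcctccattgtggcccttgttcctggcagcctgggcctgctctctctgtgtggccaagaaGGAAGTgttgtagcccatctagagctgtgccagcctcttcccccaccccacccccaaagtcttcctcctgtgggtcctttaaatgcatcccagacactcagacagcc
Slpi: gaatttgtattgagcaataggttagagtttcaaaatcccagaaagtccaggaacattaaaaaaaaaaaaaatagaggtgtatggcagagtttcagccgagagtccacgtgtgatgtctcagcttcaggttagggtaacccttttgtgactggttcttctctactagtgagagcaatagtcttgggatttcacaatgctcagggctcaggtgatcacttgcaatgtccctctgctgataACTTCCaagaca
Wfdc18: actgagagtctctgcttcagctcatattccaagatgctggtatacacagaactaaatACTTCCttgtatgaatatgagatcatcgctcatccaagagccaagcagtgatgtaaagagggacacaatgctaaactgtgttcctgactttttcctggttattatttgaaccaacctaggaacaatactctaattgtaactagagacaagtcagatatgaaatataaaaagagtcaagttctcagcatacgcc

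Counted from the start, the match lies at -107 to -102 in Wap, at -12 to -7 in Slpi and at -193 to -188 in Wfdc18. TGTTCT was found upstream of Wfdc15b alone (16.1% of all promoters). TTCNNNGAA, found in 7.02% of all promoters, and TTGGCA, found in 12.3%, were found in none of the 8 windows, which says nothing of sites farther away. Each match is of letters only, and no binding was measured.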

How the data were processed

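MEC RNA-seq libraries were analysed, 3 from wild-type mice and 3 from IL-21isoTg mice, grouped by the labels. The deposited counts of reads per gene carry no normalization. The submitters' processing notes name FastQC 0.11.7, Trimmomatic 0.38, HISAT2 2.1.0, SAMtools 1.9, featureCounts 1.6.3, DESeq2 1.24.0 and build mm10, and the annotation and strand setting are not given in the sources used here. The authors also deposited the counts divided by size factors and a table of their comparison (fold changes and p-values), of which only the gene positions were used. Of 31286 identifiers shared with GENCODE M21 (GRCm38), 31020 had the same start and end.

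Genes were filtered with filterByExpr (minimum count 10, minimum total 15), scaled by TMM and compared by edgeR 4.0.16's quasi-likelihood test (robust, genotype as the only term), with Benjamini-Hochberg adjustment over all genes tested and calls at 0.05. DESeq2 1.42.0 and limma 3.58.1 were alternatives, in R 4.3.3. The procedure was tested on simulated data. Standard errors were derived from the log2 fold change and its F value. TPM used the union of annotated exons. Exact permutation tests were two-sided, on log2(CPM + 0.5). Pattern likeness was computed over the 6 mice among genes with a mean of at least 1 CPM. Named genes were the 10 members, genes of fixed lists (Wap regulators, milk proteins, proteases, inhibitors and cell type markers), the 5 nearest patterns and overlapping genes. Members and lists were chosen with earlier results of these data known. Promoter sequences are from RefSeq on GRCm38.p6. P-values measure the spread between 3 mice per group.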

Additional observations from a re-analysis of the deposited data

How the results depend on the processing

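Of 150 recomputed log2 fold changes of the 8 genes tested, 138 kept their direction and their side of the threshold, 4 passed the threshold that they had missed, and 8 changed direction. Slpi passed with no filter on low counts (1.14, adjusted p = 0.0291), in DESeq2's Wald test (1.16) and in edgeR's likelihood ratio test (1.15). The numbers of genes called higher and lower, 0 and 0 in the report, were 72 and 9 in DESeq2's Wald test, 52 and 13 in the likelihood ratio test and 14 and 0 with no filter, and each of these called 1 member, Slpi. With each mouse left out in turn, 0 to 6 genes and 0 to 1 members were called higher, and the log2 fold change lay between 5.32 and 13.4 for Wap, -0.11 and 0.44 for Wfdc1, -0.80 and 0.51 for Wfdc2, and 2.13 and 5.92 for Wfdc17, and 2 to 5 members were higher at an unadjusted p under 0.05. The member called was Wap, without the third wild-type mouse. Its 13.4 is a fitted value against the first and second wild-type mice, with 1 count each, and no measured size. With the salivary gland level as a covariate, Wfdc12 (-0.68) and Wfdc2 (0.43) changed direction, and 1 member was lower at an unadjusted p under 0.05. With library totals in place of TMM factors, added after seeing the data, Wfdc1 changed direction (-0.15), 3 genes and 0 members were called higher, 3 members were higher at an unadjusted p under 0.05, and 2 had groups that did not overlap. The cause was not tested. With at least 10 counts in every mouse, Wap and Wfdc17 were not tested and 3 members were higher at an unadjusted p under 0.05. The mean TPM of each of the 10 genes over all mice moved by less than the SD pooled within genotype with other gene lengths or without salivary gland genes, although without the latter Wap, Slpi and Wfdc15b moved by 184, 28.9 and 0.928, more than their wild-type SD of 44.0, 16.1 and 0.0201, as Wap and Wfdc15b also did with other lengths (109 and 0.603), and the same number of members, 3, had groups that did not overlap with DESeq2's size factors.

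Whether replicate numbers pair the mice was not settled. Deviations from the group means of mice with the same number correlated at -0.26, 0.096 and -0.056. Those of mice with unlike numbers ranged from -0.27 to 0.26, so these few values can neither show nor exclude a pairing. With the replicate number as a block, 0 genes and 0 members were called, and the log2 fold changes were 9.27 for Wap, 1.14 for Slpi, 0.16 for Wfdc1, -0.04 for Wfdc2, 1.96 for Wfdc3, 0.56 for Wfdc12, 3.48 for Wfdc17 and 1.07 for Wfdc18. The Wap value (standard error 2.84) includes the first and second wild-type mice, with 1 count each, so it is no measured size. Wfdc15b and Wfdc21, with 0 to 25 counts per mouse, were limited by depth.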
